A study of Homo sapiens with 10 samples.

Results

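The strongest binding sites of wild-type MYC that did not appear in the peak list of the 3A mutant were examined through 10 genes: TCF3, ADGRB1, PALD1, HID1, RTN4R, SLC16A6, SLC19A1, B4GALT2, B3GALT6 and KCNQ5. They were chosen from the measured values. Each is the protein-coding gene nearest to one of the 10 wild-type (WT) peaks with the highest fold enrichment among the WT peaks that no 3A peak overlaps, and they are 10 of 20037 protein-coding genes in the gene table. Their leading peaks are 10 of 4032 WT peaks without a 3A peak, out of 4749 WT peaks in all. Because WT fold and the absence of a 3A peak made the choice, those values are described here and not tested. A peak was counted at a gene if its summit lay inside the gene or within 50 kb of either end.

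The series measured chromatin binding by ChIP-Rx, which is ChIP-seq with foreign chromatin added as a reference. The cells were U2OS, a human osteosarcoma line, with the endogenous MYC gene knocked out and a FLAG-tagged MYC expressed from a doxycycline-inducible construct. The 3 proteins compared were WT MYC and the mutants MYC-3A and MYC-7A, each induced with 1 µg/mL doxycycline for 24 h and recovered with anti-FLAG antibody. All share the knockout background, the tag and the induction, and mouse NIH3T3 cells at 10% supplied the reference chromatin. The labels do not say which residues 3A and 7A change, or whether each construct was studied in 1 clone. Each protein has 2 immunoprecipitation (IP) libraries but only 1 peak list, so no spread between replicates could be computed and no test of 1 protein against another was possible. Uninduced WT IPs (2 libraries) and inputs (1 induced and 1 uninduced) belong to the series, and no peak list of theirs was used here.

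MYC is a basic helix-loop-helix leucine zipper transcription factor that binds DNA as a dimer with MAX. The dimer prefers the E-box, a short palindromic DNA element, and is found mostly at promoters of active genes. It is best known for driving genes of ribosome production, nucleotide synthesis and metabolism, and the 10 genes here are of several kinds: a transcription factor, 2 cell-surface receptors, 2 transporters, a channel, 2 glycosyltransferases and 2 proteins of cell signalling or secretion.

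Sequences at 4 of the 10 leading sites are shown because the RefSeq promoter table (GRCh38.p14) gives a start there and the stretch holds an E-box or its variant. At PALD1 and KCNQ5 a start also lies under the leading peak, but its promoter window holds neither, and those windows are not printed. Of the 10 genes, 7 matched that table; ADGRB1, HID1 and SLC16A6 did not. Capitals mark the E-box CACGTG and its variant CACGCG, which reads CGCGTG on the opposite strand. Both were searched on both strands. The first sequence is the promoter of B4GALT2, where the WT summit fell 3 bp from the E-box. The next is the stretch between the starts of B3GALT6 and its neighbour SDF4, which lies beside the B3GALT6 peak and almost wholly outside it. Those labelled SLC19A1 are the promoter under its smaller peak and the 30 bases around the E-box under its leading peak. The last spans the start of LOC105372862, the non-coding RNA that lies under the peak assigned to RTN4R.
B4GALT2, chr1:43979687-43979936, plus strand: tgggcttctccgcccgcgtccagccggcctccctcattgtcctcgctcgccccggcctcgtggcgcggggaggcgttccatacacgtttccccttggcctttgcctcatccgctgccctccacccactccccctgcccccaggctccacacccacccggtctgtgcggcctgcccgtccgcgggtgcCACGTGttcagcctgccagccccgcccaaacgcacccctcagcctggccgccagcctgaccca
B3GALT6 to SDF4, chr1:1232002-1232236, plus strand: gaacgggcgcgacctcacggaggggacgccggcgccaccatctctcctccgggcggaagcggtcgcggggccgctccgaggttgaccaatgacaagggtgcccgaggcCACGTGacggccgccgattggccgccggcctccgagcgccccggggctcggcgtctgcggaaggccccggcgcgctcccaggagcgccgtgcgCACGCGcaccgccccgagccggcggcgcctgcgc
SLC19A1 promoter, chr21:45542441-45542690, minus strand: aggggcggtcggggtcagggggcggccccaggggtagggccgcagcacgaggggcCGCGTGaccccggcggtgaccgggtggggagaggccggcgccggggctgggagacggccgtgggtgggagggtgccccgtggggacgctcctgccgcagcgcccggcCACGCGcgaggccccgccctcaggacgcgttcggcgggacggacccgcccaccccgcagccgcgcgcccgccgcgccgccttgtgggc
SLC19A1 site, chr21:45541797-45541826, minus strand: ttcgcgcccaggCACGTGttgcttcgggac
LOC105372862 start, chr22:20212113-20212262, minus strand: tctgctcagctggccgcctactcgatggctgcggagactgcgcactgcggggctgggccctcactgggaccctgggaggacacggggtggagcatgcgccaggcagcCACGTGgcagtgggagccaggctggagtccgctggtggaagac

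WT MYC was enriched from 17.7-fold to 28.4-fold over local background at the 10 leading sites (median 18.2), and no 3A or 7A peak overlapped any of them. These folds are the authors' values for each peak at its summit. The absence of 3A at the leading sites was set by the choice, and in the whole list 84.9% of WT peaks had no 3A peak. It is less common among strong peaks: of the 35 WT peaks with a fold at or above the lowest of the 10, 28.6% had none, which are the 10 themselves. Absence of 7A was not part of the choice, but it is the general case, since 1.03% of all WT peaks and 0.149% of WT peaks without 3A overlapped a 7A peak. Just inside the limit of the choice stood B3GALT6 (fold 17.77) and KCNQ5 (17.73). Just outside it stood peaks nearest to CAD, a pyrimidine synthesis gene (17.52), and SGTA, a co-chaperone gene (17.42).

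**Figure D1:**
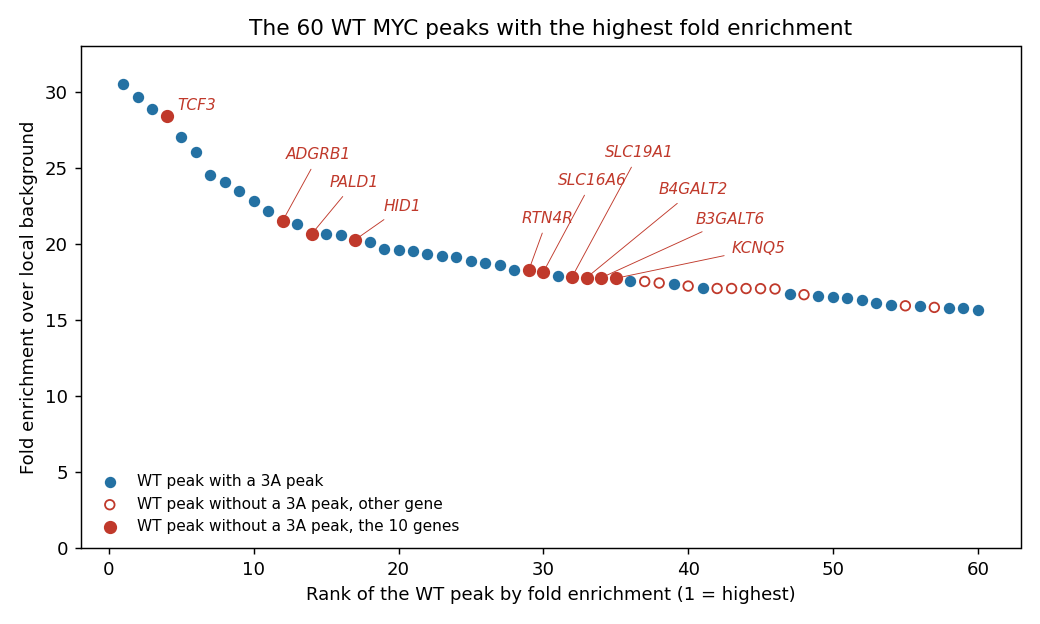
Fold enrichment of the 60 strongest WT peaks against their rank, with blue points for peaks that overlap a 3A peak, filled red points for the leading peaks of the 10 genes and open red points for other WT peaks without 3A. TCF3 is at rank 4, the next 3 genes are at ranks 12, 14 and 17, and the other 6 are at ranks 29 to 35.

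The regulator in the group was TCF3, which encodes the E proteins E12 and E47, helix-loop-helix transcription factors. Its leading peak, chr19:1671899-1673111 (1213 bp), had a fold of 28.4, rank 4 of the WT list. The summit lay 19930 bp upstream of the only TCF3 start in the promoter table and outside any protein-coding gene in the gene table. The other WT peaks counted at TCF3 belonged to its neighbours: one, with a fold of 7.79, was 538 bp inside MBD3, a methyl-CpG binding protein gene, and one, with a fold of 6.32, was 229 bp from the start of MEX3D, an RNA-binding protein gene. No 3A or 7A peak fell in the window. The nearest 3A summit was 74.9 kb from the leading peak and had a fold of 3.90, and a 7A summit (4.14) and the next WT summit (6.35) were also 74.9 kb away. Those summits lay beyond the 50 kb window and were not counted at TCF3. The leading site was listed for WT alone.

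Both receptor genes had a strong WT peak. ADGRB1 encodes an adhesion G-protein-coupled receptor known from brain, where it binds phosphatidylserine on dying cells. Its leading peak, chr8:142452093-142453680 (1588 bp), had a fold of 21.5 and a summit 3541 bp inside the lower-coordinate end of the gene. A weak WT peak 57.1 kb further on, still inside the gene, had a fold of 2.66. The nearest 3A summit was 838 kb away and the nearest 7A summit 9271 kb away. That 3A distance lies within the quartiles of all WT peaks without 3A, 188 and 1945 kb. RTN4R encodes the Nogo receptor, which transmits myelin signals that inhibit axon growth. The peak assigned to it, chr22:20211372-20212535 (1164 bp, fold 18.3), lay 29275 bp beyond the lower-coordinate end of RTN4R, which is its 3′ end since the gene is on the minus strand. That summit was 22 bp downstream of the start of LOC105372862, a long non-coding RNA gene, and 10 bp from the E-box shown above. No WT peak lay within 1 kb of RTN4R itself, and the second WT peak in its window (fold 5.12) was 31203 bp from its upper end, nearer to DGCR6L. The nearest 3A summit was 94.7 kb from the RTN4R peak.

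PALD1 encodes paladin, a protein with phosphatase-like domains studied in blood vessels, and HID1 encodes a Golgi protein that acts in the making of secretory granules. The PALD1 peak was the widest of the 10, at chr10:70477579-70479320 (1742 bp), with a fold of 20.6. Its summit lay 19493 bp inside the gene span and 789 bp upstream of the PALD1 start in the promoter table, so it is near a promoter although deep within the span. The promoter window of that start, under the same peak, held no CACGTG. A second WT peak with a fold of 3.92 lay 10166 bp beyond the upper end of the gene. The nearest 3A (3.72) and 7A (3.50) summits were both 187 kb from the leading summit. The HID1 peak was the narrowest, at chr17:74960713-74961295 (583 bp, fold 20.3), with a summit inside HID1, 10200 bp from its nearer end. The nearest start in the table, that of the antisense gene HID1-AS1, was 9747 bp away. Its window also held a WT peak with a fold of 5.59 between the ends of USH1G and OTOP2, and a 3A peak. That 3A peak had a fold of 2.58, lay 3 bp from the start of MRPL58, a mitochondrial ribosomal protein gene, and was 51.7 kb from the HID1 summit.

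Among the transporters, SLC19A1, the reduced folate carrier that brings folates and methotrexate into cells, was the only one of the 10 genes with a pair of adjacent WT peaks. The leading one, chr21:45541366-45542029 (664 bp), had a fold of 17.9, and the smaller one, chr21:45542249-45542798 (550 bp), had a fold of 9.92, with 219 bases between them. Although both lie more than 20 kb inside the gene span, each sits at a start in the promoter table: the leading summit was 53 bp downstream of one start and the smaller summit 4 bp upstream of another. The leading summit was 16 bp from the E-box shown above. The promoter under the smaller peak held CACGCG variants but no CACGTG. Neither peak had a 3A counterpart, the nearest 3A summit was 537 kb away, and the 7A list had no peak on chromosome 21. SLC16A6 encodes a member of the monocarboxylate transporter family. Its peak, chr17:68290947-68292574 (1628 bp, fold 18.1), had its summit 64 bp outside the upper end of SLC16A6 and inside the overlapping gene ARSG, a lysosomal sulfatase gene whose own listed start was 32373 bp away. A second WT peak in the window (4.08) lay 188 bp upstream of a start of AMZ2, and the nearest 3A summit was 256 kb from the leading one.

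KCNQ5 encodes a voltage-gated potassium channel of the M-current in neurons, and spans 577 kb. Its single WT peak, chr6:72621728-72623331 (1604 bp, fold 17.7), lay at the beginning of the gene, with a summit 635 bp downstream of the start. That summit was 20 bp from the nearer boundary of the span of KCNQ5-DT, a divergent non-coding RNA. The promoter window of that start held no CACGTG. No other peak of any list lay in the gene or within 50 kb of it. The next WT summit was 898 kb away, the nearest 3A summit 2979 kb and the nearest 7A summit 28897 kb, so KCNQ5 was the most isolated of the 10 sites from other WT and from 3A peaks.

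The pair of galactosyltransferase genes had almost the same fold. B4GALT2 encodes an enzyme that adds galactose to N-acetylglucosamine in Golgi glycans, and its peak, chr1:43979403-43980755 (1353 bp), had a fold of 17.8. The summit lay 66 bp upstream of a B4GALT2 start and 3 bp from the E-box printed above, and the same promoter window held another CACGTG, 101 bp from the summit. B4GALT2 had the fullest window, with 4 WT and 2 3A peaks. The WT peak at IPO13, an importin gene, had a fold of 5.65 in the WT list and overlapped a 3A peak with a fold of 2.36 in its own list. The WT peak inside SLC6A9, a glycine transporter gene, had a WT fold of 5.97 and overlapped a 3A peak of 3.42, with summits 18 bp apart. The fourth WT peak, at DPH2 (5.46), and the leading peak between them had no 3A peak. At this locus the strongest WT peak was therefore without a 3A peak while 2 weaker WT peaks, 33.3 and 50.4 kb from it, had one. B3GALT6 encodes a galactosyltransferase of the linker that joins glycosaminoglycan chains to their core proteins. Its peak, chr1:1232231-1232962 (732 bp, fold 17.8), was the sole WT peak in its window, with the summit 290 bp downstream of the B3GALT6 start and 526 bp upstream of the divergent SDF4 start. The E-box between both starts lay 412 bp from the summit and outside the called peak. The nearest 3A summit was 175 kb away.

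**Figure D2:**
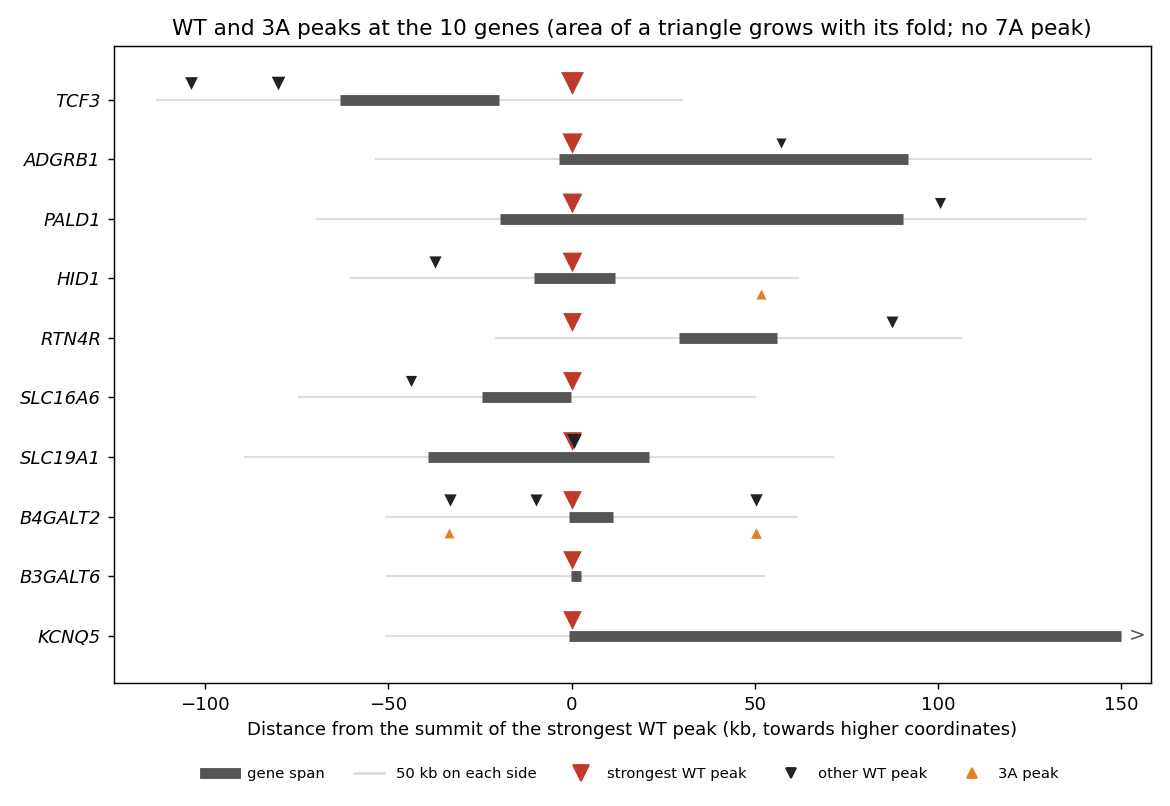
Positions of WT peaks (triangles above each line) and 3A peaks (orange triangles below) relative to the strongest WT summit of each gene, in kb. Thick bars are gene spans and thin lines the 50 kb on each side; the KCNQ5 bar runs on beyond the right edge. Only the HID1 and B4GALT2 windows hold 3A peaks, none of them at the leading WT peak, and no window holds a 7A peak.

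In all, 21 WT peaks were counted at the 10 genes, each having at least 1 by the choice where 42.8% of all protein-coding genes have one, and the 11 beside the leading ones had folds from 2.66 to 9.92 (median 5.59). Of those 11, 2 overlapped a 3A peak, both at B4GALT2, beside 15.1% of all WT peaks. A 3A peak lay in the window of 2 of the 10 genes, HID1 and B4GALT2. Over all protein-coding genes the share is 11%, and among genes with a WT peak in the window it is 24.3%. The choice excluded a 3A peak at the leading WT peak in each of the 10 windows. These shares carry no such condition, so they are not a like comparison for the count of 2. No gene had a 7A peak in its window, where 0.634% of all genes and 1.39% of genes with a WT peak have one.

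Distances to the nearest 3A summit ran from 33.6 kb at B4GALT2 to 2979 kb at KCNQ5, with a median of 181 kb. All 4032 WT peaks without 3A had a median of 578 kb (quartiles 188 and 1945 kb), and 90.8% of them were more than 50 kb from a 3A summit. Of the 10 leading summits, 9 were more than 50 kb away. The nearest 3A peaks had folds of 2.36 to 4.39 in the 3A list, whose median is 3.41. Summits of 7A were 74.9 kb (TCF3) to 41704 kb (B3GALT6) away at the 9 genes whose chromosome has one.

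**Figure D3:**
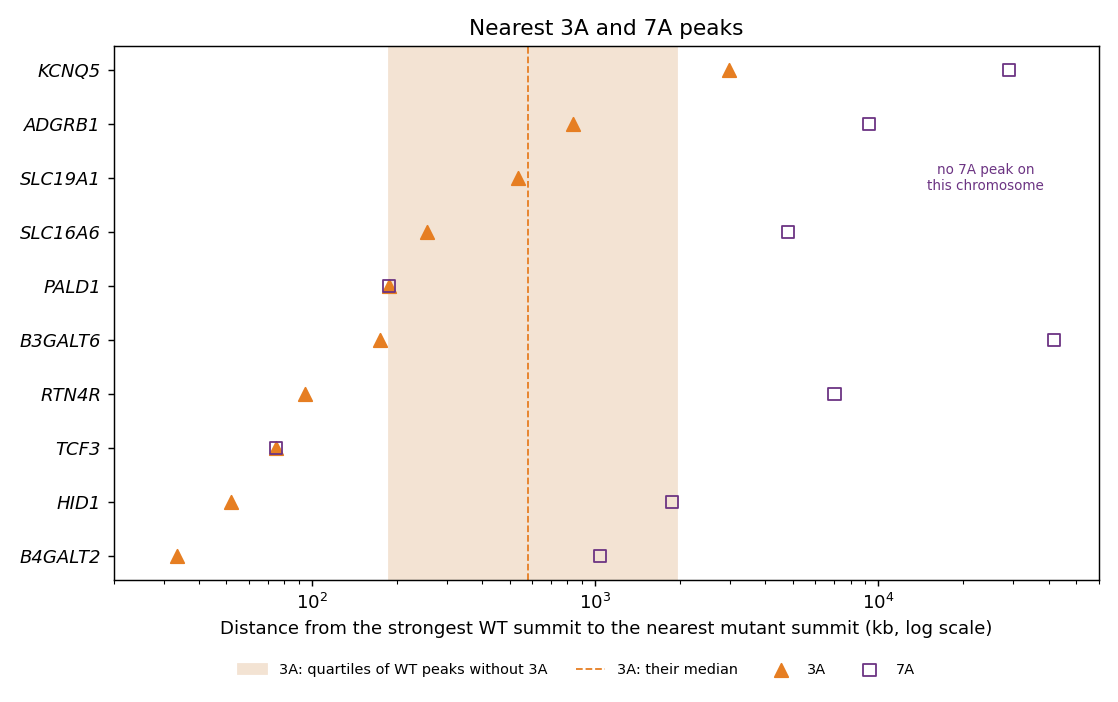
Distance in kb, on a log scale, from the strongest WT summit of each gene to the nearest 3A summit (orange triangles) and 7A summit (purple squares). The shaded band gives the quartiles (188 and 1945 kb) and the dashed line the median (578 kb) of the 3A distance for all WT peaks without 3A. At TCF3 and PALD1 the 3A and 7A symbols coincide.

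The fold is a ratio, and its parts were recovered from the deposited fold and p-value: the pileup, the number of overlapping IP fragments at the summit, and the local background expected there. They come from the same WT measurement as the choice and are a description. The 10 leading peaks had pileups of 129 (SLC19A1) to 262 (RTN4R), with a median of 200.5, over backgrounds of 5.755 (TCF3) to 13.4 (RTN4R), with a median of 9.56. B3GALT6 had a pileup of 137, SLC16A6 183, TCF3 191, HID1 197, B4GALT2 204 and KCNQ5 231. ADGRB1 and PALD1 each had 235. The median background of all WT peaks was 13.05, and TCF3 stood at its lowest value: 139 WT peaks, itself included, shared that value within 0.01. The TCF3 site was thus rank 4 of 4749 by fold and rank 169 by pileup. SLC19A1 ranked 32 by fold and 584 by pileup, and RTN4R, with the highest pileup of the 10, ranked 29 and 57.

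The other 25 WT peaks with a fold at or above the lowest of the 10 had a 3A peak. Of these, 22 lay within the fold range of the 10 genes and the rest above it. The 25 peaks were mostly taller and mostly stood on higher backgrounds. Their pileups ran from 196 to 873 (median 351), and 20 of them exceeded the RTN4R value of 262, the highest of the 10 genes. Their backgrounds ran from 7.73 to 28.5 (median 15.97), and 18 exceeded 13.4. The ranges overlap: 5 of the 25 had pileups within the range of the 10 genes and 7 had backgrounds within it. The clearest case is the peak inside ING5, a chromatin reader gene, which had a WT fold of 24.0, a pileup of 209 and a background of 7.73, close to B4GALT2 and HID1, and a 3A fold of 7.34 in the 3A list. At the other end, the peak 40210 bp from FOXK1, a forkhead factor gene, had a WT fold of 29.6, near that of TCF3, with a pileup of 873 over a background of 28.5. The 3A folds at the 25 peaks ran from 3.28, at the nucleolin gene NCL, to 8.00 at the site near FOXK1. Their widths, 642 to 3400 bp (median 1496), covered much of the same range as the 583 to 1742 bp (median 1283) of the 10 genes.

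**Figure D4:**
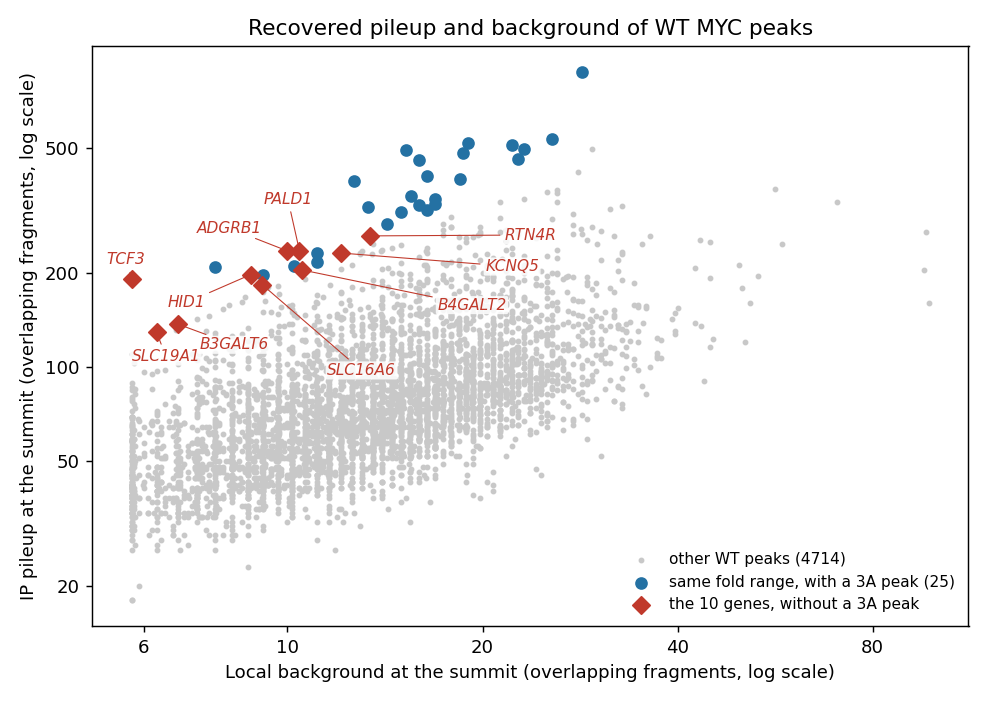
IP pileup against local background at WT summits, both recovered from the deposited values and on log scales. Red diamonds are the 10 genes and grey points the other 4714 WT peaks. Blue points, labelled as the same fold range, are the 25 WT peaks at or above the lowest fold of the 10 that overlap a 3A peak. The 10 genes lie at pileups of 129 to 262 on the left, and 20 of the 25 blue points lie above 262.

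The share of WT peaks with a 3A peak was also counted among neighbours in rank. Of the 100 WT peaks nearest in fold rank to any of the 10, 60 had a 3A peak. For every gene these were nearly the same peaks, with a median fold of 16.4, below the lowest of the 10. Leading peaks of the other genes were not removed from any set of neighbours, and they lack 3A by the choice. Of the 100 nearest in pileup, the number was 31 for SLC19A1 and 34 for B3GALT6, the genes with the lowest pileups, 54 to 69 for 7 genes, and 76 for RTN4R. Of the 100 nearest in background it was 1 for SLC19A1, 2 each for TCF3 and B3GALT6, and 9 to 15 for the other 7 genes. The neighbours in background were much weaker peaks than the 10, with median folds of 4.83 to 6.81 and median pileups of 44 to 68.5. WT peaks with a fold of at least 10 were split at the background of RTN4R, the highest of the 10, so that all 10 fall in the lower class by the choice. With the 10 left out, a 3A peak was present at 59 of the other 202 in the lower class (29.2%, Wilson 95% interval 23.4 to 35.8%) and at 85 of 123 in the higher (69.1%, 60.5 to 76.6%). The median folds of these classes were 11.9 and 12.3, and the median pileups 123 and 229. These shares describe the WT list and do not test the 10 genes. Intervals here cover counting error only. In the 3A list, 172 of the 845 peaks had a 3A background no higher than 13.4, with pileups from 32 upward and folds from 2.72 upward. The median background was 19.65 in the 3A list and 13.05 in the WT list, so this limit is not alike in both. The 3A background at the 10 sites is unknown, and a link between background and the absence of 3A was not tested. A WT site missing from the 3A list may still carry 3A signal under the authors' peak threshold, which the lists do not show.

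**Figure D5:**
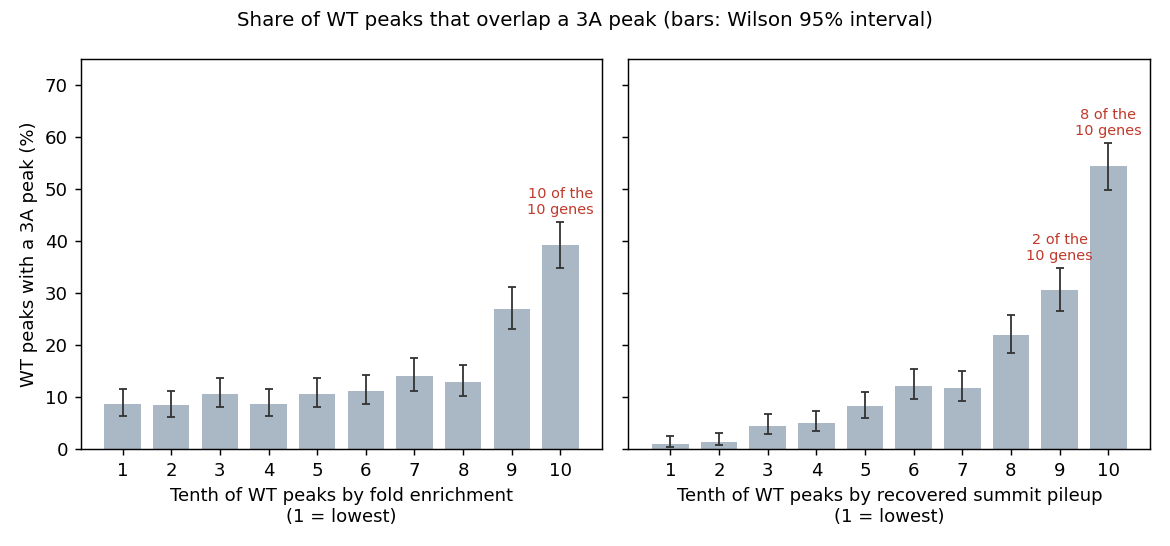
Percentage of WT peaks that overlap a 3A peak in 10 equal groups of the WT list ordered by fold (left) and by recovered pileup (right), with Wilson 95% intervals. The share rises from 8.65% in the lowest group to 39.2% in the highest by fold and from 1.05% to 54.3% by pileup. All 10 genes fall in the highest group by fold, and by pileup 8 fall in the highest group and 2 in the next.

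Position and sequence were not used in the choice of the 10 genes beyond naming the nearest gene. Of the 10 leading summits, 6 lay within 1 kb of a start in the promoter table, those at B4GALT2, B3GALT6, KCNQ5, PALD1, SLC19A1 and, through the non-coding RNA, RTN4R. The shares were 60.7% of all WT peaks, 58.9% of WT peaks without 3A and 88% of the 25 strong WT peaks with 3A. ADGRB1, HID1 and SLC16A6 have no start in that table, so their summits could not count through their own starts. The SLC16A6 summit lay 64 bp outside the upper end of its gene. By gene span, 7 of the 10 summits were inside the named gene, 1 was inside another protein-coding gene (ARSG) and 2 were in none (TCF3 and RTN4R). CACGTG occurred in 3 of the 11 promoter windows of the 7 genes in the table, 1 window each at B4GALT2, B3GALT6 and SLC19A1. Some of the 11 windows, such as those of TCF3 and RTN4R, were not under a WT peak. The share was 7.26% of all 35116 windows of 300 bases, bound or not. Of the 1299 WT summits that fall in a window, 28.6% had CACGTG in that window. At a fold of at least 10 this was 78% of 50 without 3A and 62.5% of 48 with 3A. Their Wilson 95% intervals, 64.8 to 87.2% and 48.4 to 74.8%, overlap. CACGTG was at most 16 bp from the leading summit at B4GALT2, SLC19A1 and the RTN4R-assigned site. The SLC19A1 summit lay just outside its promoter window. The shares that follow count only summits inside a window, so they are not a like comparison for these 3 sites. Over the 1299 WT summits that fall in a promoter window, 13.1% were within 20 bp of a CACGTG in it (Wilson 95% interval 11.4 to 15.03%). The share was 12.3% (10.4 to 14.4%) of 1026 without 3A and 16.1% (12.2 to 20.9%) of 273 with 3A. At a fold of at least 10 it was 24 of 50 without 3A (48%, 34.8 to 61.5%) and 19 of 48 with 3A (39.6%, 27.0 to 53.7%), and these intervals overlap. The leading summits at B4GALT2 and the RTN4R-assigned site lie inside windows and were not left out of the classes without 3A. A match is a sequence in a window and does not show that MYC contacts it.

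Gene families of the 10 genes were also examined. Since the 10 genes were chosen for the highest WT folds, a lower fold at their relatives follows from the choice. With summits inside a gene or within 1 kb of its ends counted, WT peaks were found at 21.2% of all protein-coding genes, and 18.1% of those also had a 3A peak. Of the 14 SLC16 genes, 4 had a WT peak, and 1 of these also had 3A: SLC16A1, the lactate and pyruvate carrier MCT1, at 10.7-fold in the WT list and 3.16-fold in the 3A list. The others were SLC16A6 itself, SLC16A7 (5.04) and SLC16A9 (4.90), without a 3A peak. Of 7 folate and thiamine carrier genes 4 had a WT peak and none a 3A peak, the proton-coupled folate transporter SLC46A1 (5.42), the thiamine carrier SLC19A2 (4.54) and the mitochondrial folate carrier SLC25A32 (4.46) after SLC19A1. Of 7 β-1,4-galactosyltransferase genes 4 had a WT peak, with B4GALT3 (7.89), B4GALT7 (4.93) and B4GALT5 (4.90) beside B4GALT2, and none had a 3A peak. In the linker pathway of B3GALT6, 5 of 6 genes, all but XYLT1, had a WT peak and none had a 3A peak inside or within 1 kb, while a 3A summit lay within 50 kb of 1 of them, B3GAT3. Its other members were B3GAT3 (6.73), the xylosyltransferase gene XYLT2 (6.11), B4GALT7, and FAM20B, the xylose kinase gene (4.89).

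Of 5 KCNQ channel genes KCNQ5 alone had a WT peak, and of 5 β-1,3-galactosyltransferase genes B3GALT1 (3.92) joined B3GALT6. ADGRB2 (4.54) joined ADGRB1, and ADGRB3 had no peak. TCF3 and RTN4R themselves have no WT peak within 1 kb. Of the 7 E protein and ID genes, 3 had a WT peak: TCF12, at 4.29-fold in the WT list and 2.42-fold in the 3A list, and ID2 (4.49) and ID1 (3.24), inhibitors that pair with E proteins, without 3A. Of 7 Nogo receptor complex genes, RTN4RL2 (4.30) and LINGO1 (3.83) had a WT peak and none had a 3A peak. In these 9 lists, TCF12 and SLC16A1 were the genes with both a WT and a 3A peak inside or within 1 kb. With the 50 kb window, a 3A summit was counted at 4 SLC16 genes and at TCF12, B4GALT2 and B3GAT3. No other list gene had one. No list gene had a 7A peak within 50 kb.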

How the data were processed

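Per the labels, 10 libraries in 6 groups were made from chromatin fixed in 1% formaldehyde for 10 min, sheared to 200 to 500 bp and amplified for 9 PCR cycles from 5 ng of DNA. Per the submitters' processing notes, cutadapt, Bowtie2, SAMtools, Picard and MACS2 were used, with builds hg19, mm10 and hg38. The sources used here do not state versions, the control, how the 2 IP libraries were joined or how mouse reads were used, and the depth per library is unknown. The authors deposited 1 narrowPeak list per induced protein: 4749 WT, 845 3A and 64 7A peaks. Each peak has the authors' fold, a ratio over local background. The authors' −log10 p-values and q-values were used, and the deposited score was left aside. Levels were not compared between proteins.

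The files name no build, and hg38 was checked on the data: a GRCh38.p14 RefSeq start lay within 1 kb of 60.7% of WT summits, against 3.35 and 3.03% after shifts of 100 kb. Coordinates count from 1. Peaks were shared at an overlap of at least 1 bp. Gene spans came from the RefSeq table and starts and sequences from the RefSeq promoter table (250 bases before to 50 after a start). The gene table has no exons, so exon, intron and UTR classes were not analysed here. Pileup and background were solved from fold = (pileup + 1)/(background + 1) and a Poisson tail. All 4749 WT and 845 3A peaks and 63 of 64 7A peaks matched within 0.02 of the step between pileups, and 100% of 2000 simulated peaks were recovered. On simulated partners 300 of 300 overlaps were found.

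The 10 genes and the gene lists were chosen with earlier results of these data known. The text names the 10 genes, the strongest WT peaks with 3A, neighbours at a peak, and up to 4 others per gene list by WT fold; ING5, NCL, FOXK1, the genes just outside the choice and the other genes in a window were named after their values were seen. The 1 kb window and the split by background without the 10 peaks were added after the data were seen. Alternatives covered the q threshold, overlap rule, ranking, gene type, window and motif. Computation used Python 3.11.15, numpy 2.4.6, pandas 2.3.3, scipy 1.17.1, statsmodels 0.14.6 and matplotlib 3.10.9.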

Additional observations from a re-analysis of the deposited data

How the results depend on the processing

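The 10 genes stayed the 10 strongest WT sites without 3A at a −log10 q of at least 5 or 10 and when any 3A peak within 5 kb counted as shared. With summits within 100 bp counted as shared, 7 remained. The number fell to 4 when 50% of both peaks had to overlap, since strong WT peaks with a partial 3A overlap then enter. It was 5 with peaks ranked by −log10 q, 1 (RTN4R) ranked by recovered pileup, and 6 with peaks named by the nearest gene of any type. By pileup the leading WT sites without 3A were nearest to RBFOX3, MYC and CERK, with summits 205328, 51611 and 6528 bp from the gene ends. The share of WT peaks without 3A was 88.3% at a −log10 q of at least 10, 89.1% with 50% overlap and 88.8% by summits within 100 bp. Within 10 kb of the 10 genes there were 11 WT peaks, and 0 genes had a 3A peak, beside 19.7% of genes with a WT peak there. Within 1 kb there were 10 WT peaks, and 0 genes had a 3A peak, beside 18.1%. Most WT peaks in these 2 windows are leading peaks, so the absence of 3A there is largely set by the choice. TCF3 and RTN4R have no WT peak in either window, while the shares cover only genes that have one. Within 100 kb, 4 genes had a 3A peak and 2 a 7A peak, beside 28.8% and 1.66% of all genes with a WT peak in that window. The choice excluded 3A at the leading peaks in this window too. At a −log10 q of at least 10, 1 gene had a 3A peak. Of the 7 genes in the promoter table, 3 had CACGTG, 3 had CANNTG and 4 had CACGTG or CACGCG. By windows, CANNTG was in 5 of 11 beside 68.7% of all windows, a lower share, and CACGTG or CACGCG in 5 of 11 beside 17.4%. These shares cover all windows, with or without a WT peak. No paired analysis was possible because each protein has 1 peak list that carries no replicate number, and for the same reason no replicate could be left out. A site absent from a list is below the authors' threshold, and the depth of each library is unknown.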
